A study of Rattus norvegicus with 6 samples.

Results

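Aldehyde dehydrogenases, alcohol dehydrogenases and aldo-keto reductases are the enzyme families that oxidise or reduce alcohols, aldehydes and ketones in liver. Their transcripts were taken from an RNA-seq table of rat liver. The members were selected by name: all rows whose symbol begins with Aldh, Adh or Akr and a number, without Akr1c14, Akr1d1, Aldh1a1 and Aldh1l2. This gave 35 of the 25926 rows, with 16 aldehyde dehydrogenases, 4 alcohol dehydrogenases and 15 aldo-keto reductases. The families were picked from this table with the difference between its groups already known, so the counts and adjusted p-values below place the members within the fit over the whole table and support nothing beyond it. The study compared liver of 3 control rats given 0.9% saline with liver of 3 rats given total parenteral nutrition (TPN, feeding by infusion into a vein) for 7 days. All were Sprague-Dawley rats aged 4 weeks. The TPN rats bear the disease label PNALD, parenteral nutrition-associated liver disease, and the controls the label normal. How long saline was given, and by which route, was not given in the sources used here.

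Alcohol dehydrogenases pass electrons from an alcohol to NAD+ and leave an aldehyde. Aldehyde dehydrogenases take the aldehyde on to an acid, and many of them belong to a single route of amino acid, folate or fatty aldehyde breakdown. Aldo-keto reductases work mostly in the other direction and use NADPH to reduce aldehydes, ketones, sugars and steroids. The hepatocyte is the main site of these reactions and holds several of the enzymes at very high levels.

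Values are FPKM, fragments scaled to transcript length and library total, so that levels of different genes can be set side by side. The FPKM of a library summed to between 509630.0 and 544670.0, whole reads could not be recovered from low values, so the depth is unknown. Albumin, the defining hepatocyte transcript, ran from 12828 to 48388 FPKM over the 6 libraries, while the neutrophil enzymes Mpo and Elane stayed at or under 0.142 FPKM. Other neutrophil markers were not absent. S100a9 ran from 3.13 to 18.4 FPKM, S100a8 from 2.26 to 21.5 and Itgam from 0.525 to 3.58, each highest in TPN 1. The summed acute-phase transcripts separated 1 rat from its group on each side. They came to 49874 FPKM in control 2, where controls 1 and 3 had 17969 and 17772, and to 99467 FPKM in TPN 1 against 41167 and 35387 in the other TPN rats. Where a log2 fold change was not already close to 0 and moved by more than 1.5-fold without TPN 1, both values are given.

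Across the families most members had a lower mean in the TPN livers, although few passed the test. Of the 29 members with a mean of at least 1 FPKM, 27 had a negative log2 fold change (TPN minus control, on the log2(FPKM + 1) scale), with a median of -0.64. Over all 11362 features tested 49.1% were negative and the median was 0.0065. All 18 members with a mean of at least 10 FPKM were negative, with a median of -0.60, beside 51.4% negative and a median of -0.011 over the 4120 features at that level. Among the 18, Akr1b7 and Aldh1a7 met this level through the controls alone, with TPN means of 1.91 and 1.70 FPKM. Their part in this count supports nothing. After median-ratio scaling or quantile normalisation 25 of 29 members stayed negative, and after scaling to TPM, which brought in Aldh3b1, 25 of 30. Akr1a1 and Aldh16a1 turned positive under each of these scalings. The median of the members was -0.37 without TPN 1, and -0.49 without both control 2 and TPN 1. RNA from whole tissue cannot tell fewer cells of a type from less RNA per cell.

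In the fit with limma, 2 members passed a Benjamini-Hochberg adjusted p under 0.05, Aldh1b1 and Akr1c1, both lower in TPN, where 0.22% of all features passed as lower and 0.0264% as higher. No member passed as higher. At an unadjusted p under 0.05 there were 12 lower members and 0 higher, beside 7.01% of features lower and 4.44% higher. Control and TPN values were fully apart in 12 of the 29 members, all lower in TPN, beside 9.09% of features lower and 8.02% higher without overlap. Among the 29 were 3 that met the minimum through the controls alone, with a TPN mean under 1 FPKM: Akr1c1, Akr1c2 and Akr1b8. Their part in these counts supports nothing. Of the 26 members with both group means of at least 1 FPKM, 24 were negative (median -0.55) and 1 passed, Aldh1b1. Of these 26, 10 were lower at an unadjusted p under 0.05 by limma and 10 were lower without overlap. Akr1b7 and Aldh1a7 reached a TPN mean of 1 FPKM through TPN 1 alone, and lay at or under 0.456 FPKM in TPN 2 and TPN 3. The 6 members outside the 29 lay under the minimum and were not tested. Over all 35 members, fitted without a minimum, 30 were negative with a median of -0.49.

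**Figure D1:**
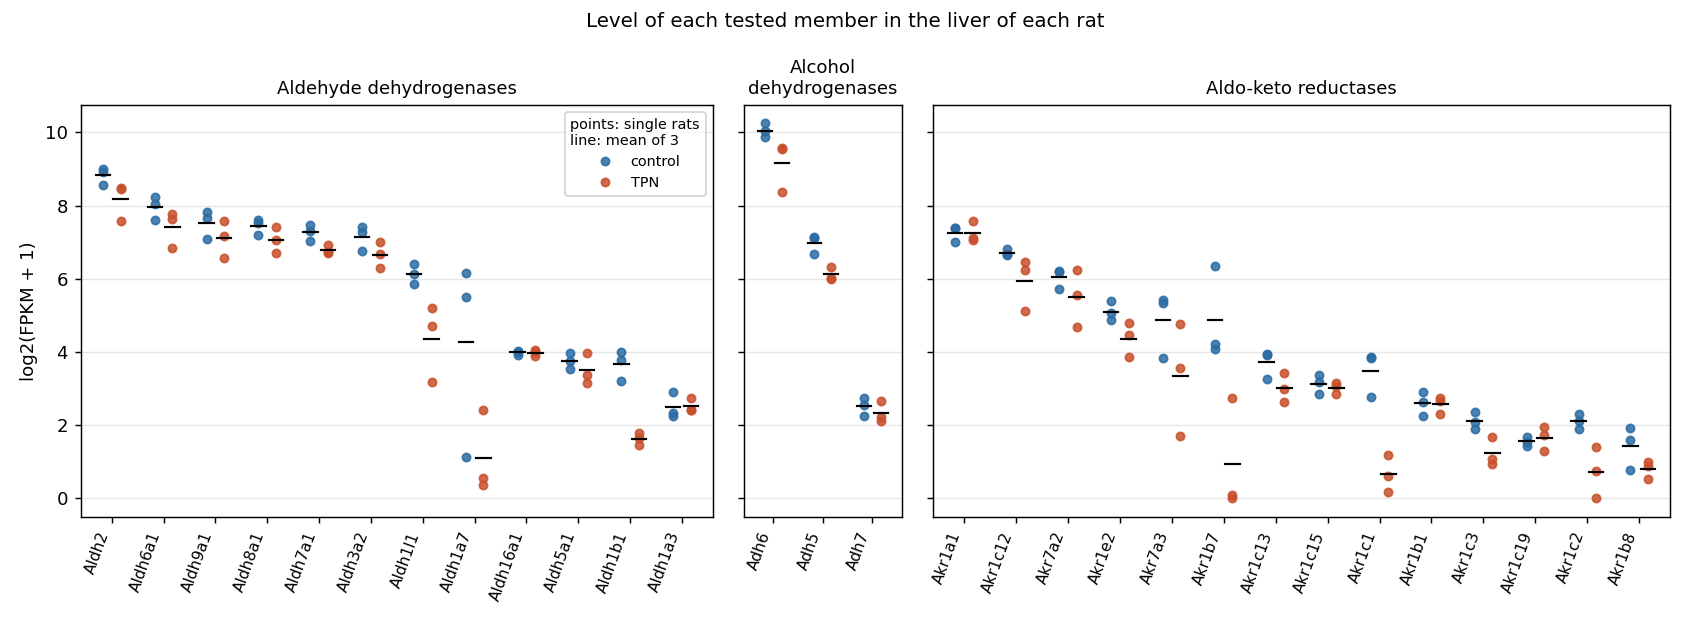
Level of each of the 29 tested members, as log2(FPKM + 1) on the vertical axis, with 1 point per rat (blue for 3 control, orange for 3 TPN rats) and a line at the mean of each group, by family and falling mean level. The orange points lie lower for most members, clear of the blue ones for Aldh1b1, Aldh1l1, Adh5 and Akr1c1, and on top of them for Aldh16a1, Aldh1a3, Akr1a1 and Akr1b1.

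The promoters of 4 members are shown because their transcripts mark the range of what was seen: Aldh1b1 with the smallest p among the members, Akr1b7 with the most negative fold change, Adh5 with a narrow and clearly separated difference, and Aldh16a1 with almost none. Each runs from 250 bases before to 50 bases after the gene's start, from RefSeq on build GRCr8, matched by symbol. Capitals mark matches, on either strand, to a core promoter box (TATAAA), the core of the site bound by the receptor AHR (GCGTG), the antioxidant element of NRF2 (TGACNNNGC) or a motif of the C/EBP factors (TTGCNNAA).
Aldh1b1, chr5:64858750-64859049, + strand: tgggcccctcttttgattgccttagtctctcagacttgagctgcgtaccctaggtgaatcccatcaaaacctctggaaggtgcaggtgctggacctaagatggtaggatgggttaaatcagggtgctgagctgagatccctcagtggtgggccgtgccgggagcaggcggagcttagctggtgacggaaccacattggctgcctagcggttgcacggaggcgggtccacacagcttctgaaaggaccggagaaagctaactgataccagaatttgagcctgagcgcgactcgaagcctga
Akr1b7, chr4:64043720-64044019, + strand: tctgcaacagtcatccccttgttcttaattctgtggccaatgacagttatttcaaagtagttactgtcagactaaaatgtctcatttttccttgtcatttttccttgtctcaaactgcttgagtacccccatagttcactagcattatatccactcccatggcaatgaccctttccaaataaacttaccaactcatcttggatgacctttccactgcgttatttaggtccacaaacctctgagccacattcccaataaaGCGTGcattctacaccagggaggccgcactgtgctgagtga
Adh5, chr2:229648307-229648606, + strand: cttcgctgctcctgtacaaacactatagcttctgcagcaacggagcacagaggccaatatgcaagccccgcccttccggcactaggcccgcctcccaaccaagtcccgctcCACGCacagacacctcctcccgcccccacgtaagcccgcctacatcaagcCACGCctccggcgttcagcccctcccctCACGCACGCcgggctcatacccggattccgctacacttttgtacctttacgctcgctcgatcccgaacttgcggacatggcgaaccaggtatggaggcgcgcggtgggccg
Aldh16a1, chr1:104776221-104776520, - strand: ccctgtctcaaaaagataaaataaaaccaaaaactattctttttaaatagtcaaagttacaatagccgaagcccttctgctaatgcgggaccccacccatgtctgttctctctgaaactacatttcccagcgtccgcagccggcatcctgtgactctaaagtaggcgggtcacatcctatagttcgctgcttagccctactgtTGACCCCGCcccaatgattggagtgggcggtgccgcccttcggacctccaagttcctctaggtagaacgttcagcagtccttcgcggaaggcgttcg

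RefSeq promoters were matched for 29 of the 35 members. The AHR core stood in 13 of these 29, beside 29.7% of the 33469 promoters of that length. It occurs 4 times in the Adh5 promoter, where the last pair of matches abut and share a base, and once in that of Akr1b7, after the start. The antioxidant element was found in 4 members (Akr1c15, Aldh9a1, Aldh16a1 and Aldh1a2), beside 12.1% of all promoters, and the C/EBP letters in 4 (Akr7a3, Akr1c2, Akr1b8 and Aldh3b1), beside 10.6%. TATAAA was present in Akr1c3, Akr1c19 and the promoter matched to the row named Adh6, a name that is uncertain for this row, beside 14.2%. The Aldh1b1 window held none of these letters. The GC content of the windows ran from 36.7% in Akr1c3 to 76.0% in Aldh1a2, with 56.3% for Aldh1b1, 43.0% for Akr1b7, 63.7% for Adh5 and 50.7% for Aldh16a1.

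Among the aldehyde dehydrogenases, 11 of 12 tested members were negative (median -0.49, from -3.15 to 0.02), 4 had no overlap between the groups and 1 passed over all features. Their median was -0.29 without TPN 1 and -0.47 without both control 2 and TPN 1.

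Aldh1b1, a mitochondrial enzyme close to Aldh2 that oxidises acetaldehyde and other small aldehydes, fell. It measured 12.8, 8.30 and 14.9 FPKM in the control rats and 1.75, 2.14 and 2.42 FPKM in the TPN rats. The lowest control was well above the highest TPN rat, and the TPN rats lay close together. Its mean level was 5.71-fold lower in TPN (12.0 ± 3.38 and 2.10 ± 0.337 FPKM, SD, n = 3), with a log2 fold change of -2.04 (SE 0.22, adjusted p by limma of 0.0278), the sixth smallest p of the table. Leaving out a control raised the adjusted p to 0.0927 (control 1) or 0.0533 (control 3), and leaving out a TPN rat raised it to 0.0921 (TPN 2) or 0.106 (TPN 3), while the log2 fold change stayed between -1.88 and -2.11 in those fits. With median-ratio scaling or quantile normalisation it was 0.0557 and 0.0512.

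Aldh2, the main mitochondrial acetaldehyde dehydrogenase, was the most abundant of the family. It measured 511, 376 and 480.1 FPKM in control and 189, 356 and 349 FPKM in TPN rats. The groups were separate, but only narrowly between control 2 and TPN 2. The log2 fold change was -0.65 (SE 0.30, adjusted p by limma of 0.458), and -0.36 without TPN 1. Aldh3a2, which oxidises long-chain fatty aldehydes in the endoplasmic reticulum, measured 153, 107 and 169 FPKM in control and 76.9, 101 and 127 FPKM in TPN, with overlap (log2 fold change -0.49, and -0.31 without TPN 1). Aldh3b1, a further enzyme of lipid-derived aldehydes, lay under the minimum, at 0.507, 0.492 and 0.574 FPKM in control and 1.35, 0.720 and 0.749 FPKM in TPN. It was higher in every TPN rat, as was Aldh18a1.

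Several dehydrogenases serve amino acid and related breakdown. Aldh6a1, the methylmalonate semialdehyde dehydrogenase of valine and thymine breakdown, measured 300.1, 194 and 263 FPKM in control and 113, 196 and 217 FPKM in TPN. Aldh7a1 (antiquitin), of lysine breakdown, measured 175, 130.2 and 158 FPKM in control and 103, 105 and 121 FPKM in TPN. Aldh8a1, of the kynurenine route from tryptophan, measured 194, 145 and 184 FPKM in control and 103, 132 and 171 FPKM in TPN. Among these Aldh7a1 alone showed no overlap, and none passed: the log2 fold changes were -0.55, -0.48 and -0.38 with limma adjusted p of 0.533, 0.405 and 0.603. Aldh9a1, which makes the carnitine precursor gamma-butyrobetaine, measured 203, 134 and 228 FPKM in control and 94.3, 142 and 189.8 FPKM in TPN (log2 fold change -0.43, adjusted p by limma of 0.655). Aldh5a1, which clears succinic semialdehyde from GABA, measured 12.6 ± 2.07 FPKM in control and 10.7 ± 3.66 FPKM in TPN (SD, n = 3). In Aldh9a1, Aldh8a1, Aldh6a1 and Aldh5a1 the lowest TPN value was that of TPN 1 and the highest that of TPN 3. With TPN 1 left out, the log2 fold change of Aldh6a1 became -0.27, of Aldh8a1 -0.20, of Aldh9a1 -0.16 and of Aldh5a1 -0.08 (from -0.26), and with control 2 left out that of Aldh9a1 became -0.65.

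Aldh18a1 works in the opposite sense to breakdown, making the proline and ornithine precursor from glutamate, and lay under the minimum. It measured 0.249, 0.322 and 0.0842 FPKM in control and 0.871, 1.06 and 0.331 FPKM in TPN. The lowest TPN rat was just above the highest control. It was one of 2 untested members with no overlap and higher values in TPN.

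Aldh1l1, the cytosolic 10-formyltetrahydrofolate dehydrogenase, which releases one-carbon units as carbon dioxide, had one of the larger differences. It measured 83.6, 56.6 and 69.6 FPKM in control and 8.13, 24.9 and 36.0 FPKM in TPN. All TPN rats were under all controls, with TPN 1 lowest by far. The mean was 3.04-fold lower (69.9 ± 13.5 and 23.0 ± 14.1 FPKM, SD, n = 3), with a log2 fold change of -1.76 (SE 0.50, adjusted p by limma of 0.270), and -1.18 without TPN 1.

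The retinal dehydrogenases and their relatives differed from each other. Aldh1a7, a rodent relative of Aldh1a1, measured 69.9, 43.9 and 1.2 FPKM in control and 4.37, 0.456 and 0.285 FPKM in TPN. Control 3 lay under TPN 1, so the groups overlapped, and the controls alone spanned most of the range. Its log2 fold change of -3.15 carried an SE of 1.39 (limma adjusted p = 0.470). Aldh1a3, which makes retinoic acid, measured 4.03, 6.48 and 3.79 FPKM in control and 4.30, 4.29 and 5.73 FPKM in TPN, with a log2 fold change of 0.02 that turned negative without control 1, control 3 or TPN 3. Aldh1a2, another retinoic acid enzyme, stayed at or under 0.576 FPKM in all rats, and Aldh3a1 was listed at 0 in every rat. Near-identical sequence between Aldh1a7 and Aldh1a1 may split reads in ways the table does not show, so the level of Aldh1a7 is uncertain.

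Aldh16a1, a family member whose mammalian protein lacks the catalytic cysteine, was the steadiest. It measured 15.1, 14.2 and 15.2 FPKM in control and 15.6, 13.9 and 14.9 FPKM in TPN. Its spread was 3.71% of the mean in control and 5.81% in TPN, and the log2 fold change was -0.0074 (SE 0.14, adjusted p by limma of 0.989).

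**Figure D2:**
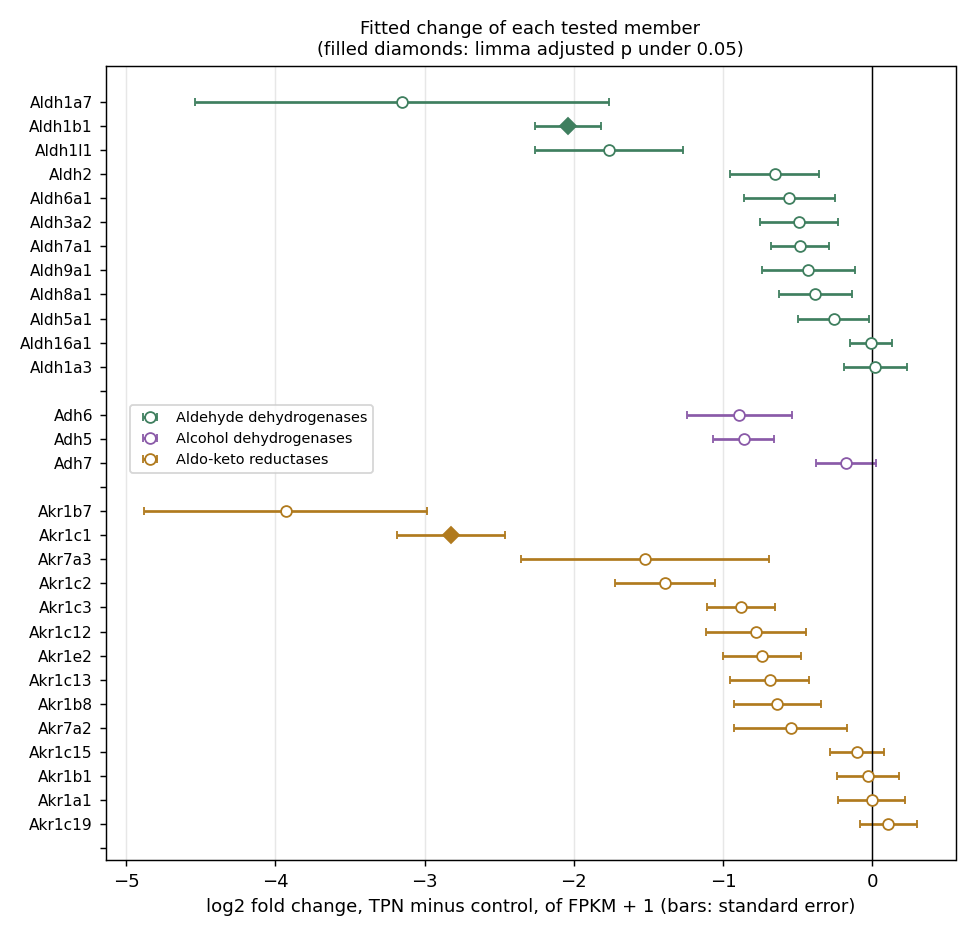
Log2 fold change (TPN minus control) of FPKM + 1 on the horizontal axis for each tested member, by family, with bars of 1 standard error; filled diamonds passed limma's adjusted p under 0.05 (Aldh1b1 and Akr1c1). Nearly all points lie left of 0, and the bars are widest for Aldh1a7 and Akr1b7, whose rats differed most.

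The alcohol dehydrogenases were few but carried much of the transcript of these families. The row named Adh6 held 82.9% to 91.9% of the summed FPKM of the 4 Adh rows in a rat. It measured 1043, 1212 and 942 FPKM in control and 329.6, 762 and 742 FPKM in TPN. All TPN rats were under all controls, TPN 1 lowest, and control 2, which was lowest for most members, was here the highest control. Its mean was 1.74-fold lower (1065 ± 137 and 611 ± 244 FPKM, SD, n = 3; log2 fold change -0.89 with SE 0.35 and an adjusted p by limma of 0.399). Without TPN 1 the log2 fold change was -0.49, and without both control 2 and TPN 1 it was -0.40. The Adh genes lie side by side and resemble each other, and in RefSeq the cluster also holds Adh1c and Adh4, names that no deposited row bears. The split of reads among close relatives is uncertain. The name Adh6 is that of the deposited table, and whether this very abundant row is Adh6 or a class I alcohol dehydrogenase under another name was not settled here, so neither its level nor a promoter matched by that symbol can be tied to a given enzyme.

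Adh5, the class III enzyme that oxidises S-hydroxymethylglutathione and so clears formaldehyde, measured 138, 101 and 141 FPKM in control and 64.4, 63.3 and 78.9 FPKM in TPN. The groups were separate and the TPN rats close together, TPN 1 among them. The mean was 1.84-fold lower (127 ± 22.5 and 68.9 ± 8.70 FPKM, SD, n = 3; log2 fold change -0.86 with SE 0.21 and an adjusted p by limma of 0.194). Adh7, the class IV enzyme best known from stomach and other epithelia, measured 4.90, 5.63 and 3.72 FPKM in control and 3.34, 5.31 and 3.66 FPKM in TPN, with overlap (log2 fold change -0.18; -0.07 without TPN 1, and positive with sample weights or without both control 2 and TPN 1). Adh6a stayed at or under 0.148 FPKM and was listed at 0 in TPN 3. The median log2 fold change of the 3 tested members was -0.86, and -0.49 without TPN 1 and -0.40 without both control 2 and TPN 1.

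Among the aldo-keto reductases, 13 of 14 tested members were negative (median -0.71, from -3.93 to 0.11), 6 had no overlap between the groups and 1 passed over all features. Akr1c1, Akr1c2 and Akr1b8 met the minimum through the controls alone. The median of the family was -0.49 without TPN 1 and -0.62 without both control 2 and TPN 1.

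Akr1c1, a steroid-reducing enzyme that RefSeq also lists as Hsd17b5, fell. It measured 13.2, 5.84 and 13.4 FPKM in control and 0.132, 1.27 and 0.531 FPKM in TPN. The lowest control was several times the highest TPN rat, and all TPN rats were near or under the minimum of 1 FPKM. Akr1c1 met that minimum through the controls alone, so its call supports nothing by itself. Its log2 fold change was -2.83 (SE 0.36, adjusted p by limma of 0.0418). The call was lost on leaving out control 1 (adjusted p = 0.147), control 3 (0.121), TPN 1 (0.0713), TPN 2 (0.0778) or TPN 3 (0.157), with log2 fold changes from -2.59 to -3.09. It was 0.151 with the replicate number as a block, 0.0512 without the trend and robust settings, 0.0996 and 0.146 with pseudocounts of 0.1 and 0.01 FPKM, 0.0625 with a minimum of 5 FPKM, 0.0730 after median-ratio scaling and 0.0745 after quantile normalisation. Neither Akr1c1 nor Aldh1b1 passed with no filter on low values. Members of the Akr1c cluster are alike in sequence, so the assignment of reads to each is uncertain.

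The Akr1c genes, most of them hydroxysteroid dehydrogenases, lie in one cluster, where RefSeq orders the members as Akr1e2, Akr1c2, Akr1c1, Akr1c12l1, Akr1c13, Akr1c19, Akr1c12, Akr1c3 and Akr1c15. Neighbours had unlike differences. Akr1c2, next to Akr1c1, measured 3.95, 2.73 and 3.33 FPKM in control and 1.66 and 0.680 FPKM in TPN 1 and TPN 2, and was listed at 0 in TPN 3 (log2 fold change -1.39 with SE 0.34 and an adjusted p by limma of 0.203). Akr1c12, the most abundant of the Akr1c members once Akr1c14 is left out, measured 112, 102 and 99.2 FPKM in control and 33.9, 73.9 and 86.9 FPKM in TPN (log2 fold change -0.78 with SE 0.34 and an adjusted p by limma of 0.435; -0.37 without TPN 1 and -0.39 without both control 2 and TPN 1). Both had all TPN rats under all controls, and the controls of Akr1c12 differed by little.

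Akr1c3, which RefSeq also lists as Akr1c18, the enzyme that inactivates progesterone, measured 4.14, 2.74 and 3.27 FPKM in control and 0.922, 1.13 and 2.22 FPKM in TPN, without overlap (log2 fold change -0.88 with SE 0.23 and an adjusted p by limma of 0.214). Akr1c13, whose name is swapped with Akr1c12 among the RefSeq synonyms, measured 12.4 ± 3.28 FPKM in control and 7.34 ± 2.30 FPKM in TPN (SD, n = 3), with overlap. Akr1c15 and Akr1c19 differed little between the groups, which overlapped for both. Akr1c15 measured 7.84 ± 1.57 FPKM in control and 7.17 ± 0.884 FPKM in TPN (SD, n = 3; log2 fold change -0.10, positive without control 2), and Akr1c19, the one aldo-keto reductase with a positive log2 fold change (0.11, SE 0.19; negative with sample weights or without TPN 3), 1.70, 1.92 and 2.21 FPKM in control and 2.34, 1.47 and 2.83 FPKM in TPN. Akr1c12l1 stayed at or under 0.408 FPKM in control and was listed at 0 in every TPN rat. Summed over the 8 Akr1c rows, the level was 157, 133 and 142 FPKM in control and 52.2, 91.6 and 109.6 FPKM in TPN, without overlap.

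The Akr1b enzymes, aldose reductase and its relatives, covered the widest range. Akr1b7, an aldose-reductase-like enzyme that reduces lipid-derived aldehydes, measured 79.8, 15.9 and 17.5 FPKM in control. In TPN it measured 5.67 FPKM in TPN 1, 0.0619 in TPN 2 and was listed at 0 in TPN 3. The groups did not overlap, although control 1 was several times the other controls. Its log2 fold change of -3.93 was the most negative of all 11362 features tested, with an SE of 0.95 (limma adjusted p = 0.229). TPN 1, the lowest TPN rat for most members, was the highest for this one. Akr1b1, aldose reductase itself, which turns glucose into sorbitol, measured 5.18, 6.50 and 3.79 FPKM in control and 5.68, 5.32 and 3.94 FPKM in TPN (log2 fold change -0.03, SE 0.21; positive with sample weights, without control 2, without TPN 3 or without both control 2 and TPN 1). Akr1b8 measured 1.83 ± 1.03 FPKM in control and 0.747 ± 0.279 FPKM in TPN (SD, n = 3), with overlap.

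The other aldo-keto reductases are the aldehyde reductase Akr1a1, the Akr7a enzymes and Akr1e2. Akr1a1, the broad aldehyde reductase that also serves vitamin C synthesis in rats, was the most abundant of the 15 aldo-keto reductase members, from which Akr1d1 and Akr1c14, both more abundant, are left out. It measured 168, 127 and 165 FPKM in control and 138, 133 and 189 FPKM in TPN, with a log2 fold change of -0.0047 (SE 0.22, adjusted p by limma of 0.996) that turned positive under median-ratio, quantile and TPM scaling. Akr7a2, which reduces succinic semialdehyde, measured 72.7, 52.0 and 71.4 FPKM in control and 24.5, 45.9 and 74.8 FPKM in TPN, with TPN 3 above every control (log2 fold change -0.55, and -0.14 without TPN 1). Akr7a3, the aflatoxin aldehyde reductase, measured 41.7, 13.2 and 39.7 FPKM in control and 2.23, 10.8 and 26.1 FPKM in TPN (log2 fold change -1.53 with SE 0.83 and an adjusted p by limma of 0.548; -0.70 without TPN 1). Control 2 and TPN 1 were the lowest rats of their groups for both Akr7a genes. Akr1e2, which reduces 1,5-anhydrofructose, measured 40.8, 28.3 and 32.2 FPKM in control and 13.5, 21.0 and 26.5 FPKM in TPN, without overlap (log2 fold change -0.74 with SE 0.26 and an adjusted p by limma of 0.358; -0.48 without TPN 1).

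**Figure D3:**
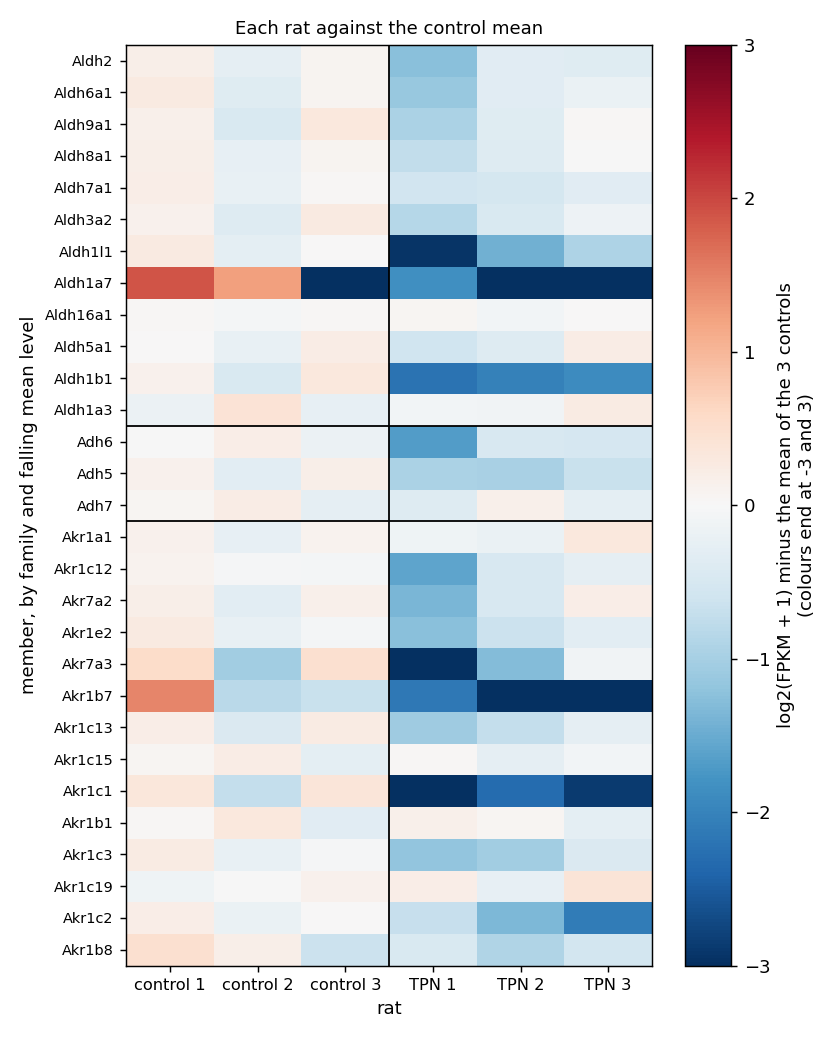
Each rat against the mean of the 3 controls, as a difference in log2(FPKM + 1), with 1 row per tested member by family and 1 column per rat; blue is lower, red is higher, and the colours end at -3 and 3. TPN 1 has the deepest blue for most of the abundant members, Akr1b7 and Akr1c2 are deepest in TPN 2 and TPN 3, and Aldh1a7 is as low in control 3 as in TPN rats.

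The 3 TPN rats did not contribute alike. TPN 1 lay below all controls in 21 of the 29 tested members (72.4%, beside 41.8% of all features), TPN 2 in 22 (75.9%, beside 33.2%) and TPN 3 in 14 (48.3%, beside 20.4%). TPN 1 was the lowest TPN rat in 18 of 29 members, 62.1% beside 49.3% of all features, and control 2 the lowest control in 20 of 29, 69.0% beside 51.6%. These are the rats with the highest acute-phase transcripts of their groups, and the part this plays in the members' levels was not tested. Leaving out both rats left Aldh1b1 at -2.18 and Akr1c1 at -2.94, each with a limma adjusted p of 0.0176, and Akr1c2 passed as well (-1.84, limma adjusted p = 0.0478), while 1.07% of all features passed. Akr1c1 and Akr1c2 met the minimum through the controls alone, so their calls support nothing by themselves.

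Summed over the 35 members, the level was 3490 FPKM in control 1, 2925 in control 2 and 3161 in control 3, and 1364, 2230 and 2506 FPKM in TPN 1, TPN 2 and TPN 3. The sums did not overlap. Their mean was 1.57-fold lower in TPN (3192 ± 283 and 2033 ± 596 FPKM, SD, n = 3), and the members made up 0.559% to 0.641% of all FPKM in control and 0.268% to 0.473% in TPN livers. By family, the alcohol dehydrogenases were separate (1197 ± 116 and 684 ± 249 FPKM), and the aldehyde dehydrogenases (1522 ± 263 and 1021 ± 270.0 FPKM) and aldo-keto reductases (473 ± 94.5 and 328 ± 95.6 FPKM) overlapped. These sums rest mostly on a few abundant transcripts such as Adh6 and Aldh2, and 3 rats against 3 cannot give an exact permutation p under 0.10.

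**Figure D4:**
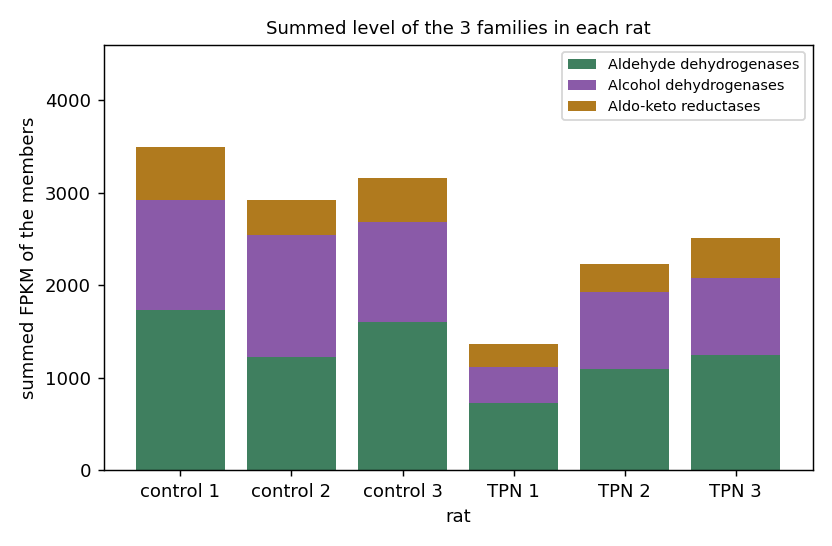
Summed FPKM of the members in each rat (bars from 0), stacked by family. The 3 control bars stand at 2925 to 3490 FPKM and the 3 TPN bars at 1364 to 2506 FPKM, with TPN 1 lowest.

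Enzymes of related chemistry outside the 3 families were mostly lower in TPN too, with none past the adjusted threshold; whether their medians differ from those of the members was not tested. Over all features tested, 49.1% were negative, and without overlap 9.09% were lower and 8.02% higher. Of other carbonyl and alcohol reductases, 10 of 14 tested were negative (median -0.37), 4 without overlap and lower and 1 higher. Grhpr, which reduces glyoxylate, measured 359.8 ± 33.5 FPKM in control and 266 ± 66.1 FPKM in TPN (SD, n = 3). Sord measured 214 ± 65.0 and 140 ± 79.9 FPKM, and Dcxr 91.8 ± 20.4 and 66.1 ± 33.2 FPKM, each with overlap. Dhrs4, a peroxisomal carbonyl reductase, was the 1 that was higher without overlap, at 61.8 ± 2.39 FPKM in control and 74.5 ± 3.51 FPKM in TPN (SD, n = 3). Of other enzymes that make or remove aldehydes and alcohols, 12 of 15 were negative (median -0.39), with 1 lower without overlap, beside the 9.09% of all features. Cat, the catalase that can also oxidise ethanol, measured 788 ± 227 FPKM in control and 405 ± 205 FPKM in TPN, and Cyp2e1, the ethanol-oxidising cytochrome, 1125 ± 490 and 702 ± 667 FPKM, with overlap in each.

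Several aldo-keto reductases are known targets of NRF2, the regulator of the antioxidant response, and Aldh3a1 of AHR, the dioxin receptor. Of other NRF2 targets, 11 of 14 tested were negative (median -0.39), none past the adjusted threshold, 2 lower and 1 higher without overlap. Over all features 49.1% were negative, and 9.09% were lower and 8.02% higher without overlap. Slc7a11, under the minimum and not tested, was higher without overlap, at or under 0.0189 FPKM in control and from 0.303 to 0.717 FPKM in TPN. Ephx1, microsomal epoxide hydrolase, measured 520 ± 184 FPKM in control and 184 ± 130 FPKM in TPN. Nqo1, a quinone reductase on both lists and singled out after its values were seen, went the other way, at 10.6, 17.6 and 28.0 FPKM in control and 33.9, 48.2 and 47.1 FPKM in TPN (log2 fold change 1.24 with SE 0.33 and an adjusted p by limma of 0.231). Of 4 tested AHR targets 2 were negative and 2 positive, and Cyp1a2 measured 418 ± 68.5 FPKM in control and 189 ± 112 FPKM in TPN.

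Markers of the cells a liver sample can hold moved to unlike extents. Summed hepatocyte markers ran from 67347 to 82570 FPKM in control and from 54002 to 74052 FPKM in TPN, with 4 of 7 negative and TPN 1 lowest. These sums mix markers that went opposite ways, with log2 fold changes from -1.44 (Ttr) to 1.08 (Fgb). Fgb was also counted among the acute-phase transcripts. Macrophage markers summed to 199.6 to 309 FPKM in control and 254 to 395 in TPN, endothelial markers to 42.6 to 69.97 and 50.1 to 62.3, neutrophil markers to 6.18 to 27.8 and 14.3 to 43.5, stellate markers to 108 to 176 and 73.9 to 102, and cholangiocyte markers to 10.7 to 14.02 and 6.42 to 8.14. Of the erythroid transcripts, 5 of 5 tested were negative and 4 passed as lower (Hbb, Hba-a1, Hba-a2 and Alas2). Slc4a1, among the 5 and not past the threshold, met the minimum through the controls alone, with a TPN mean of 0.420 FPKM. Its part in this count supports nothing. The erythroid sums were 2124 to 2417 FPKM in control and 230.5 to 577 in TPN. Of the cell cycle transcripts, 4 of 7 passed as lower (Rrm2, Cdk1, Mki67 and Ccna2), but all 7 had a TPN mean under 1 FPKM and met the minimum through the controls alone, so that this count supports nothing, with sums of 16.8 to 31.4 and 1.31 to 3.69 FPKM. The part of these cell types in the members' differences was not tested.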

How the data were processed

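RNA from liver of 3 control and 3 TPN rats was extracted with TRIzol, per the labels' protocols. The authors deposited 1 table of FPKM, a normalised unit without counts. Bowtie 0.12.2 and Cufflinks and the build Rnor_6.0 are named, per the submitters' processing notes, with their roles, the strandedness and the handling of shared reads not given in the sources used here. At most 0.853% of log2 ratios of values under 0.3 FPKM fell in 1 bin of width 0.01, so reads were not recovered, the depth is unknown, and no interval for counting error is given.

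Columns were matched to samples by title. The 11362 of 25926 features whose mean reached 1 FPKM were fitted as log2(FPKM + 1) with limma 3.58.1 in R 4.3.3 (trend and robust settings, 2-sided, Benjamini-Hochberg over all features tested, threshold 0.05), after the code was tested on simulated data. The fold changes understate differences of low members. Nothing in the labels gives more than the numbering of the rats, so p-values measure the spread between these samples.

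The members and lists were chosen with earlier results of these data known. Values per rat are given for members past the threshold, the 4 most abundant of each family, those without overlap and the extremes of each family, with others added for their role. Of companion lists, those past the threshold and up to 4 of the most abundant are named, and others where their values limit a count. Symbols matched RefSeq for 34 of 35 members, and promoters on GRCr8 for 29. Alternatives were other pseudocounts, filters, scalings, moderation, sample weights, the replicate block, summed rows and left-out rats.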

Additional observations from a re-analysis of the deposited data

How the results depend on the processing

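The median log2 fold changes of the 3 families stayed negative under all alternatives run, between -0.67 and -0.29 for aldehyde dehydrogenases, -0.94 and -0.49 for aldo-keto reductases and -0.96 and -0.40 for alcohol dehydrogenases, which gave -0.52 over 4 members with no filter and, over 3 members, -0.59 with sample weights, -0.40 without both control 2 and TPN 1, and -0.96 to -0.49 with 1 rat left out. The calls were less stable. Against 28 features and 2 members past the threshold, limma gave 18 and 1 with a pseudocount of 0.1 FPKM, 5 and 1 with 0.01, 6 and 1 with a minimum of 5 FPKM, 8 and 1 without trend or robust settings, 299 and 6 with sample weights (members Adh5, Akr1c1, Akr1c2, Akr1c3, Aldh1b1 and Aldh1l1), and 121 and 3 without both control 2 and TPN 1. It gave 0 and 0 with no filter (1179 features and 7 members at an unadjusted p under 0.05), where 5364 features listed at 0 in all rats enter the fit, with median-ratio scaling (1556 and 13) and with quantile normalisation (1591 and 12). With 1 rat left out the counts ran from 0 to 46 features and from 0 to 2 members: 3 features without control 1, 46 without control 2, 6 without control 3, 26 without TPN 1, 1 without TPN 2 and 0 when TPN 3 was left out (1393 by unadjusted p). No member passed when control 1, control 3, TPN 2 or TPN 3 was left out (7, 10, 10 and 17 by unadjusted p). The replicate block gave 58 features and 2 members, Aldh1b1 and Akr1b7 (limma adjusted p = 0.00244), and not Akr1c1. Wherever Akr1c1 or Akr1c2 passed, the minimum was met through the controls alone, so these calls support nothing by themselves. Deviations of same-numbered rats correlated at -0.214, -0.143 and 0.321, and not every rat correlated best with its own number. Deviations from a mean of 3 rats depend on each other, so this cannot decide whether the numbers pair the samples. The log2 fold change of Adh7 was 0.091 with sample weights and 0.040 without both control 2 and TPN 1, that of Akr1a1 was 0.0084 with median-ratio scaling, 0.12 with quantile normalisation, 0.019 with TPM and -0.16 to 0.088 with 1 rat left out, that of Akr1c19 was -0.12 with sample weights and -0.031 to 0.29 with 1 rat left out, that of Aldh1a3 was -0.098 to 0.22 with 1 rat left out, that of Akr1b1 was 0.13 with sample weights, 0.038 without both control 2 and TPN 1 and -0.20 to 0.12 with 1 rat left out, that of Akr1c15 was -0.25 to 0.011 with 1 rat left out, and that of Aldh16a1 was 0.0052 with median-ratio scaling, 0.015 with quantile normalisation, 0.015 with TPM and -0.043 to 0.035 with 1 rat left out. Over the 29 tested members and the alternatives in which each could be fitted, 493 log2 fold changes kept direction and side of the threshold, 20 lost the call, 6 gained it and 25 changed sign; apart from the settings named, the cause was not tested. Depth is unknown, so members near 0 FPKM cannot be told from undetected ones.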
